A study of Mus musculus with 165 samples.

Results

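The data described here cover 9 genes that mark newborn neurons and their precursors: Igfbpl1, Dcx, Sox11, Sox4, Eomes, Neurod1, Draxin, Tubb3 and Fabp7. They were found by gene symbol among the 55471 Ensembl identifiers of the brain count table, where each symbol matched 1 identifier. The brains came from male C57BL/6J/Ukj mice, an inbred strain, that the labels describe as kept for ageing under controlled conditions, with no treatment or genetic change named. Brain libraries numbered 15 at 3 months, 16 at 9 months, 16 at 15 months, 17 at 24 months and 18 at 28 months, 82 in all, each from a mouse of its own, and 83 liver libraries came from the same mice (1 mouse of 3 months, number 6, has no brain library among those analysed here). The labels do not say which parts of the brain were taken. Polyadenylated RNA was sequenced, and every library belonged to 1 of 3 library preparations (called prep here), each of which held all 5 ages.

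In the adult rodent brain, neurons are born mainly in the subgranular zone of the dentate gyrus and in the ventricular-subventricular zone, from which neuroblasts migrate to the olfactory bulb. Slowly dividing radial glia-like stem cells give rise to dividing intermediate precursors, these to neuroblasts, and neuroblasts to immature neurons that extend axons and dendrites. The 9 genes fall along that path. Fabp7 (brain lipid-binding protein) marks radial glia and astrocyte-lineage cells, Eomes (also called Tbr2) is a T-box factor of intermediate precursors, Neurod1 is a basic helix-loop-helix factor of neuronal differentiation, Sox4 and Sox11 are related SOX factors of newborn neurons, Igfbpl1 is a secreted protein related to the insulin-like growth factor binding proteins, Dcx and Tubb3 build the microtubules of migrating and young neurons, and Draxin is a secreted axon guidance protein that binds the netrin receptor Dcc. Several are also used elsewhere in the adult brain: Neurod1 in granule neurons of the cerebellum and dentate gyrus, Tubb3 in mature neurons, Fabp7 in astrocytes, Sox4 in glial precursors and Eomes in mitral and tufted cells of the olfactory bulb.

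Brain libraries held 11.5 M to 73.4 M counts, with a median of 37.6 M. As CPM over the unscaled library total, the liver marker Alb reached at most 18.8 in a brain library, and the neuronal gene Snap25 was at least 734 there. All other levels are CPM over the TMM-scaled library size, except where they are said to be unscaled. A pair of brain libraries stood apart from the rest. Over all genes, 28 months replicate 15, which was also the shallowest, had a median Spearman correlation of 0.866 with the other brain libraries, 24 months replicate 13 had 0.953, and the next lowest had 0.983. Another pair, 24 months replicate 6 and 28 months replicate 14, held summed cerebellar granule neuron markers of 726 and 489 CPM, where no other library exceeded 229 CPM. The calls on the 9 genes at 28 against 3 months were repeated without each pair, and those on the gene lists without the first. P-values measure the spread between mice.

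Of the 9 genes, 7 were lower at 28 than at 3 months, and none was higher (edgeR quasi-likelihood test, Benjamini-Hochberg adjusted p under 0.05, as for every change below). Over all 18711 brain genes tested, 28.3% changed between these ages, 12% being lower and 16.3% higher. The largest fall was that of Igfbpl1, 3.69-fold, followed by Eomes (2.20-fold), Fabp7 (2.096-fold) and Draxin (1.97-fold). Sox11 and Sox4 fell by smaller factors, 1.47-fold and 1.38-fold, and Tubb3 by 1.13-fold. Dcx and Neurod1 did not pass the test. Without the pair of libraries least like the others 6 genes passed, Tubb3 being the one lost, in a fit that called 34.1% of all genes, 16.6% as lower. In bulk tissue, fewer cells of a type and less RNA per cell cannot be told apart. All 9 passed the filter on low counts, also when the 3-month libraries were left out of the filter.

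Within single preps the fits hold fewer libraries. In prep 1, 6 of the 9 genes were called, all lower, where 10.6% of all genes changed and 4.33% were lower. Prep 2 gave 2, against 1.96% changed and 0.586% lower, and prep 3 gave 3, against 6.36% changed and 2.01% lower. The direction was lower in each prep for the 7 genes called over all preps. Eomes and Tubb3 passed the test in no single prep (edgeR, adjusted p from 0.25 to 0.508 and from 0.113 to 0.856). The log2 fold changes from 3 to 28 months in preps 1, 2 and 3 were -2.37, -1.92 and -1.31 for Igfbpl1, -0.60, -1.68 and -1.14 for Eomes, and -1.31, -0.72 and -1.12 for Fabp7. For Draxin they were -0.70, -1.24 and -1.01, for Sox11 -0.53, -0.76 and -0.41, and for Tubb3 -0.05, -0.18 and -0.31. Neurod1 had -0.45, 0.16 and -0.25, where the value in prep 1 passed the test (adjusted p = 0.0411) and the sign differed in prep 2, the prep that holds the 28-month library with the highest cerebellar markers.

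The ages at which each gene passed the test are given here, and time courses were not compared between genes by a test. At 9 months, 3 of the 9 were already lower than at 3 months, Igfbpl1, Sox11 and Draxin, where 0.315% of all genes changed, 0.128% being lower and 0.187% higher. At 15 months there were 4, the same genes and Eomes, against 0.871% of all genes changed, 0.347% lower and 0.524% higher. At 24 months 4 genes were lower, Igfbpl1, Sox11, Sox4 and Draxin, against 10.1% of all genes changed, 3.86% lower and 6.19% higher. These comparisons share the 3-month libraries, so their counts are not independent of one another. Between successive ages after 9 months little moved: 0 of the 9 differed between 15 and 9 months in edgeR, DESeq2 or voom (0% of all genes in edgeR), with an unadjusted p under 0.05 for 1 in edgeR (Draxin), 1 in DESeq2 and 2 in voom. From 15 to 24 months 0 of the 9 differed in edgeR and DESeq2 (0.732% of all genes in edgeR, 0.0534% lower and 0.679% higher), with Sox11 and Sox4 at an unadjusted p under 0.05 in edgeR. Both passed in voom with quality weights, which called 4.53% of all genes here and 1.79% as lower. From 24 to 28 months 1, Fabp7, fell (1.09% of all genes changed, 0.561% lower and 0.529% higher). In the joint test of all ages 6 of the 9 passed (20.6% of all genes), the exceptions being Dcx, Neurod1 and Tubb3.

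**Figure D1:**
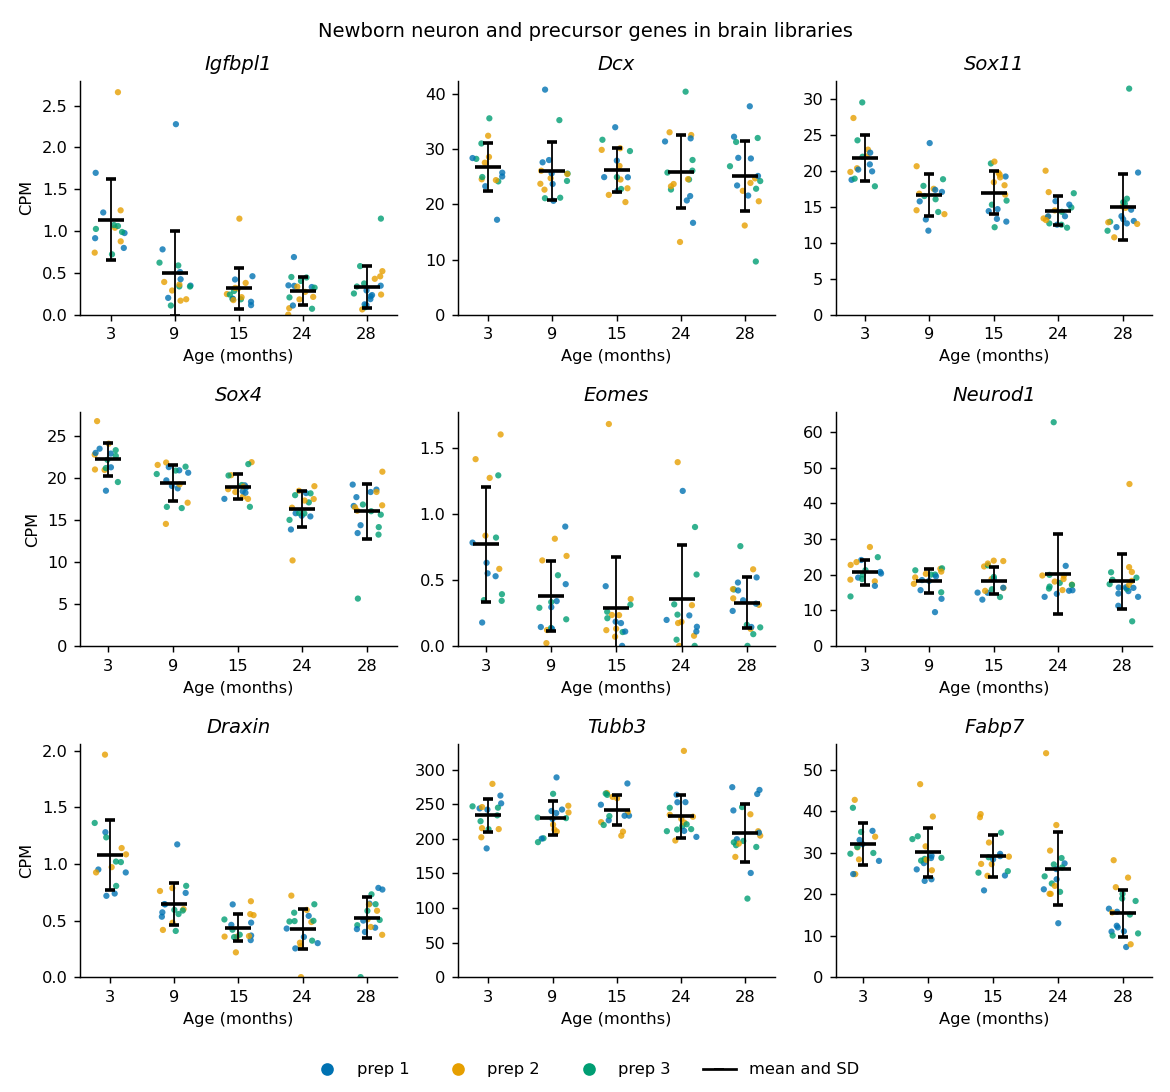
Level of each of the 9 genes (CPM, linear axes that start at 0 and differ between panels) in every brain library, by age in months. Points are single libraries coloured by library preparation, bars are the mean and SD (cut at 0), and the panels of Igfbpl1 and Draxin drop between 3 and 15 months while that of Fabp7 drops most between 24 and 28 months.

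Fabp7, the gene of radial glia and of astrocyte-lineage cells, fell mostly after 15 months. Its level at 3 months ran from 24.8 CPM to 42.7 CPM with a median of 31.4, at 9 months from 23.2 to 46.5 (median 28.6), at 15 months from 20.9 to 39.3 (median 28.6), at 24 months from 13.0 to 54.0 (median 24.3) and at 28 months from 7.26 to 28.2 (median 15.3). The first 3 ages overlapped almost fully, whereas 9 of 17 libraries at 24 months and 17 of 18 at 28 months lay below the lowest 3-month library. Means were 32.1 ± 5.06 CPM (SD, n = 15) at 3 months and 15.3 ± 5.72 CPM (n = 18) at 28 months, a log2 fold change of -1.07 ± 0.12 (SE, adjusted p = 2.4e-11). At 24 months the change from 3 months was -0.32 ± 0.12 (adjusted p = 0.0652), and the step from 24 to 28 months alone was -0.74 ± 0.11 (adjusted p = 6.47e-05). A fit of only these last 2 ages gave -0.73 with an adjusted p of 0.061. The highest 24-month value, 54.0 CPM, was that of replicate 13, one of the libraries least like the others. Without it and 28 months replicate 15, Fabp7 also passed the test at 24 against 3 months.

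Eomes, the factor of intermediate precursors, was one of the most variable of the 9. It had the lowest mean per length at 3 and 28 months, where its difference from Draxin did not pass the test given below. At 3 months it ran from 0.177 CPM to 1.60 CPM (median 0.631), at 9 months from 0.0209 to 0.905 (median 0.313), at 15 months from 0 to 1.68 (median 0.197), at 24 months from 0 to 1.39 (median 0.197) and at 28 months from 0 to 0.757 (median 0.333). The groups overlapped at every age. The median count per library was 27 at 3 months and 12 at 28 months, and 1 library of 28 months, 2 of 24 months and 1 of 15 months held 0 counts. The lowest library of 9 months (0.0209 CPM) held 1 count, and 1 library each of 15 and 24 months held 2, so that these values and the zeros are below the floor of 3 counts and set no level. At 28 months 17 of 18 libraries stood at or below the 3-month median and 6 lay below the lowest 3-month library. Against 3 months it changed by a log2 fold of -1.44 ± 0.39 at 15 months (adjusted p = 0.0468), -1.05 ± 0.37 at 24 months (adjusted p = 0.0554) and -1.14 ± 0.37 at 28 months (adjusted p = 0.0162). The call at 15 months was lost in 42 of the 82 fits that left out 1 library, with adjusted p from 0.0012 to 0.0959, while that at 28 months was kept in all of them.

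Neurod1, the differentiation factor, did not pass the test at any age over all preps. Its levels were 13.9 to 27.8 CPM at 3 months (median 20.3), 9.48 to 21.8 at 9 months (median 19.4), 13.0 to 23.9 at 15 months (median 17.6), 13.8 to 62.8 at 24 months (median 17.2) and 6.89 to 45.4 at 28 months (median 16.8). The medians differed by less than the range within any age. The log2 fold change at 28 months was -0.19 ± 0.13, with a 95% interval from -0.45 to 0.07 (adjusted p = 0.296). Both extreme values, 62.8 and 45.4 CPM, came from the pair of libraries with the highest cerebellar granule neuron markers. Without this pair, left out after the data had been seen, the change was -0.30 ± 0.09 (adjusted p = 0.00799), and 7 of the 9 genes were again lower, with Neurod1 in the place of Tubb3 (adjusted p = 0.0506). The share of all genes called in the fit without this pair was not counted. Of the 6 cerebellar markers tested, 2 were higher at 28 months in edgeR, Cbln3 and Fat2, and 0 in DESeq2 or voom. Their summed level at 3 months was 151 to 208 CPM (median 191) and at 28 months 138 to 489 CPM (median 171).

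**Figure D2:**
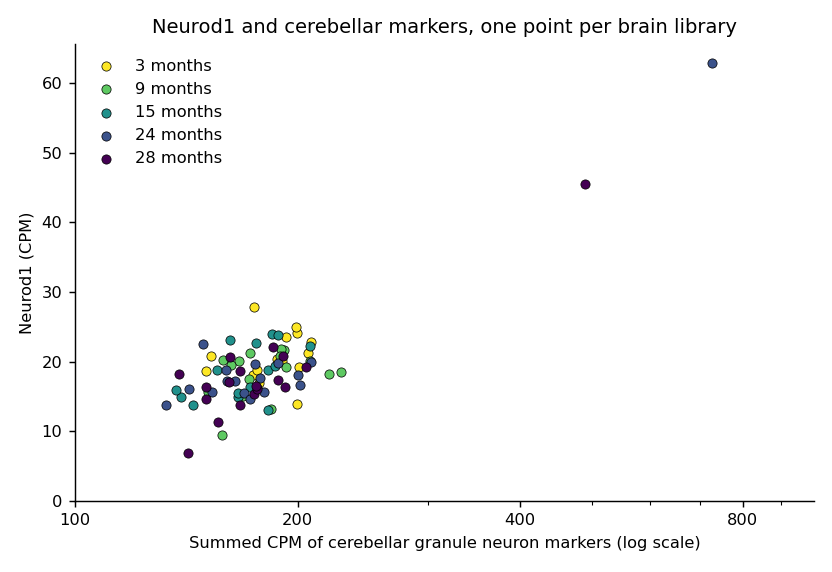
Neurod1 level (CPM) against the summed level of cerebellar granule neuron markers (CPM, log scale), with 1 point for each of the 82 brain libraries and colours for age. The libraries at 726 and 489 CPM of marker sum hold the Neurod1 values of 62.8 and 45.4 CPM, and the other 80 libraries lie together at 229 CPM or less.

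The SOX factors Sox11 and Sox4, which act in overlapping ways in newborn neurons, were both lower at 24 and 28 months. Sox11 ran from 17.9 to 29.6 CPM at 3 months (median 20.9), from 11.7 to 23.9 at 9 months (median 16.7), from 12.2 to 21.3 at 15 months (median 17.4), from 12.1 to 20.04 at 24 months (median 13.7) and from 10.8 to 31.5 at 28 months (median 13.5). Of the libraries, 12 of 16 lay below the lowest 3-month value at 9 months, 8 of 16 at 15 months, 16 of 17 at 24 months and 16 of 18 at 28 months, and the highest 28-month value was that of replicate 15, the library least like the others. In log2 the change from 3 months was -0.39 ± 0.09 at 9 months (adjusted p = 0.0272), -0.37 ± 0.09 at 15 months (adjusted p = 0.0224), -0.60 ± 0.09 at 24 months (adjusted p = 9.07e-07) and -0.56 ± 0.09 at 28 months (adjusted p = 1.1e-06). The calls at 9 and 15 months were lost in 8 and 6 of the 82 fits that left out 1 library, with the highest adjusted p at 0.0815 and 0.0614.

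Sox4 passed the test from 24 months on, with lower estimates already at 9 and 15 months. It ran from 18.5 to 26.8 CPM at 3 months (median 22.6), from 14.5 to 21.8 at 9 months (median 20.1), from 16.5 to 21.9 at 15 months (median 18.8), from 10.2 to 19.01 at 24 months (median 16.4) and from 5.63 to 20.7 at 28 months (median 16.6). No library of 9 months or older exceeded the 3-month median, and 16 of 17 libraries at 24 months and 15 of 18 at 28 months lay below the lowest 3-month library. Fitted changes in log2 were -0.20 ± 0.07 at 9 months (adjusted p = 0.393), -0.24 ± 0.07 at 15 months (adjusted p = 0.133), -0.44 ± 0.07 at 24 months (adjusted p = 4.75e-06) and -0.47 ± 0.07 at 28 months (adjusted p = 3.8e-07). Within the preps fitted alone, the 28-month change was -0.37, -0.38 and -0.66 in preps 1, 2 and 3.

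Promoter sequences are given for Sox11, Sox4 and Draxin, which all fell and were the members with a CAGCTG motif, an E-box that basic helix-loop-helix factors such as Neurod1 can bind, and for Dcx, which did not pass the test. They are the bases before the RefSeq transcription start (GRCm38.p6), without any base inside an annotated exon of the gene, 5′ to 3′ on the gene's strand, which is the minus strand in all 4. The RefSeq start of Sox11 lies upstream of the gene as annotated in GENCODE M21, and the bases after it were not found in an annotated transcript, whereas those of the other 3 were. Capitals mark CAGCTG, which reads the same on both strands. The Sox11 stretch lies at chr12:27342719-27342968, that of Sox4 at chr13:28953714-28953949, that of Draxin at chr4:148130699-148130948 and that of Dcx at chrX:143933312-143933469.
Sox11: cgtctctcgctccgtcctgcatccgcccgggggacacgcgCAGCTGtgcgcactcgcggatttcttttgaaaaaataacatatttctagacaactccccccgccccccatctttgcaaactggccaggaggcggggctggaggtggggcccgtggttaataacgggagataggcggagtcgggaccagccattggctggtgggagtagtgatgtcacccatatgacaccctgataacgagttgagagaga
Sox4: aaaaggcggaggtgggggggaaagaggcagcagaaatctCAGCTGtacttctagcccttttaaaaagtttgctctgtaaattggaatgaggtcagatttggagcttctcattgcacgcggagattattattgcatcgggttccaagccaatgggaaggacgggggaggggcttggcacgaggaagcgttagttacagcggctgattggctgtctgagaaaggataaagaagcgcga
Draxin: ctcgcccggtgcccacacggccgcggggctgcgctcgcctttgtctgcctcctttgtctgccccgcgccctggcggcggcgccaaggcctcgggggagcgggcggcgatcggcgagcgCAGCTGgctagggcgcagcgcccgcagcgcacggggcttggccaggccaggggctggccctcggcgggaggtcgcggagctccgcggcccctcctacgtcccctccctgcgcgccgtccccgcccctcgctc
Dcx: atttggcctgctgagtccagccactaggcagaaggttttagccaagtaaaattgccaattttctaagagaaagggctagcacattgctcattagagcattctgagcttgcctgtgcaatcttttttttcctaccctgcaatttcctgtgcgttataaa
RefSeq promoters were at hand for 8 of the 9 genes. In the 250 bases before the start, CAGCTG was found in 3 of the 8, against 13% of 32851 mouse promoters, and CATCTG or its complement CAGATG in 1, Fabp7, against 14.4%. Of the genes with a promoter but no CAGCTG, Eomes, Fabp7 and Tubb3 also fell, and Dcx and Neurod1 did not pass the test. The SOX motif AACAATG or its complement CATTGTT was found in 0 of the 8, against 3.29% of promoters. A match describes these letters only, and no match says nothing about the factor.

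Igfbpl1, the secreted binding protein of early neuroblasts, fell early and had the largest fitted change of the 9. It ran from 0.721 to 2.66 CPM at 3 months (median 1.03), from 0.109 to 2.28 at 9 months (median 0.354), from 0.113 to 1.15 at 15 months (median 0.243), from 0 to 0.689 at 24 months (median 0.322) and from 0.0623 to 1.15 at 28 months (median 0.271). At 24 months all 17 libraries lay below the lowest 3-month library, and 14 of 16, 15 of 16 and 17 of 18 did at 9, 15 and 28 months. The single 28-month library above the 3-month median was replicate 15, the library least like the others. Median counts per library were 39 at 3 months and 10.5 at 28 months, so the older values rest on few reads, and the lowest libraries of 24 and 28 months, at 0 and 2 counts, are below the floor of 3 counts. The log2 fold change was -1.24 ± 0.28 at 9 months (adjusted p = 0.021), -1.82 ± 0.30 at 15 months (adjusted p = 2.72e-05), -1.97 ± 0.29 at 24 months (adjusted p = 5.09e-07) and -1.88 ± 0.29 at 28 months (adjusted p = 3.57e-07). Leaving out 3 months replicate 9, which held the highest 3-month value of 2.66 CPM, gave an adjusted p of 0.0574 at 9 months, and the same library held the highest 3-month values of Sox4 and Draxin and of the summed olfactory bulb, oligodendrocyte precursor and dividing-cell genes. With a score of the olfactory bulb markers as a covariate the change at 9 months was -1.29 (adjusted p = 0.00969), and the part of the other markers in the result was not tested.

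Draxin, the secreted guidance protein, also reached its low level by 15 months. Its range was 0.718 to 1.97 CPM at 3 months (median 1.02), 0.408 to 1.17 at 9 months (median 0.598), 0.219 to 0.671 at 15 months (median 0.397), 0 to 0.720 at 24 months (median 0.487) and 0 to 0.788 at 28 months (median 0.508). All 16 libraries at 15 months lay below the lowest 3-month library, as did 16 of 17 at 24 months and 15 of 18 at 28 months. The zeros at 24 and 28 months, also below that floor, were the libraries least like the others, replicates 13 and 15. On the log2 scale the change was -0.74 ± 0.16 at 9 months (adjusted p = 0.0155), -1.29 ± 0.17 at 15 months (adjusted p = 9.68e-08), -1.29 ± 0.17 at 24 months (adjusted p = 9.87e-09) and -0.98 ± 0.16 at 28 months (adjusted p = 1.71e-06). From 24 to 28 months the estimate was 0.30 ± 0.17 (adjusted p = 0.462), so a difference between these ages did not pass the test.

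Dcx, the microtubule protein most used to mark migrating neuroblasts, did not pass the test at any age. It ran from 17.2 to 35.6 CPM at 3 months (median 25.8), from 20.7 to 40.9 at 9 months (median 25.2), from 20.4 to 34.02 at 15 months (median 24.97), from 13.2 to 40.5 at 24 months (median 24.6) and from 9.65 to 37.8 at 28 months (median 24.5). The 5 ages overlapped throughout, with 2 of 18 libraries at 28 months below the lowest 3-month library and 1 above the highest. The log2 fold change at 28 months was -0.10 ± 0.11 (adjusted p = 0.518), with a 95% interval from -0.31 to 0.11, which does not reach a fall of the size fitted for Igfbpl1, Eomes, Fabp7, Draxin, Sox11 or Sox4. By prep the estimate was 0.23, -0.35 and -0.22. With a score of clock genes as a covariate it was -0.22 (adjusted p = 0.042). This score itself varied with age, and its lowest value, -2.80, was that of 28 months replicate 15, the library least like the others.

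Tubb3, the neuronal beta-tubulin, was the most abundant of the 9 and moved least among those called. It ran from 186 to 280 CPM at 3 months (median 242), from 195 to 289 at 9 months (median 230), from 205 to 280 at 15 months (median 236), from 198 to 327 at 24 months (median 224) and from 114 to 275 at 28 months (median 202). Ages overlapped, and 3 of 18 libraries at 28 months lay below the lowest 3-month library. The log2 fold change at 28 months was -0.17 ± 0.07 (adjusted p = 0.0469). This call did not hold without the pair of libraries least like the others (-0.13, adjusted p = 0.0578), nor in 56 of the 82 fits that left out 1 library, where adjusted p ran from 0.0207 to 0.104. Tubulin genes resemble each other, and how the authors' counting treated reads shared between them is not given in the sources used here.

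**Figure D3:**
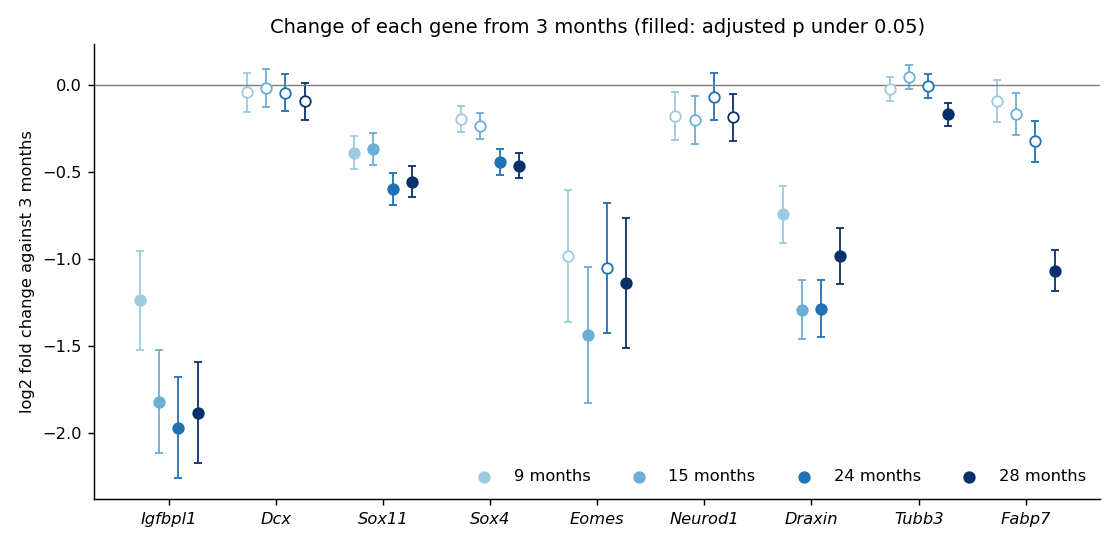
Log2 fold change of each of the 9 genes in the brain at 9, 15, 24 and 28 months against 3 months, with bars for the SE from the edgeR fit of 82 libraries. Filled points have an adjusted p under 0.05, and Dcx and Neurod1 have open points only.

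Because the 9 genes differ in length, levels between genes are set side by side as CPM per kilobase of exon annotated in GENCODE M21, which assumes that all annotated exons are used. At 3 months Tubb3 came first at 125 ± 13.0 CPM per kilobase (SD, n = 15), followed by Fabp7 at 25.7 ± 4.05 and Neurod1 at 7.59 ± 1.28. Sox4 followed at 4.63 ± 0.413, Sox11 at 2.63 ± 0.387 and Dcx at 2.12 ± 0.345. Igfbpl1 at 0.350 ± 0.149, Draxin at 0.207 ± 0.0595 and Eomes at 0.186 ± 0.105 were the lowest. Neighbours in this order were compared within libraries by a two-sided exact sign-flip permutation test, added after the data had been seen and adjusted over 16 tests at 3 and 28 months. At 3 months Draxin and Eomes were the neighbours that did not pass (Draxin higher in 10 of 15 libraries, adjusted p = 0.49). Sox11 stood above Dcx in 13 of 15 libraries (adjusted p = 0.000488). At 28 months the means of Sox11 and Dcx stood in the other order, at 1.80 ± 0.555 and 1.99 ± 0.505 (n = 18), with Sox11 higher in 5 of 18 libraries (adjusted p = 0.49). Igfbpl1 and Draxin (adjusted p = 0.97) and Draxin and Eomes (adjusted p = 0.0711) did not pass at 28 months either.

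A direct comparison of the other genes with Dcx in the same library does not depend on how library sizes are scaled, and was added after the data had been seen. For each library the log2 ratio of counts to those of Dcx (pseudocount 0.5) was compared between 28 and 3 months, with 100000 permutations of age within prep and adjustment over the 8 genes. The log2 ratio to Dcx at 28 minus 3 months was -1.79 for Igfbpl1 (adjusted p = 0.00024), -1.08 for Eomes (adjusted p = 0.00166), -0.99 for Fabp7 (adjusted p = 0.0004), -0.97 for Draxin (adjusted p = 0.00024), -0.45 for Sox11 (adjusted p = 0.0222) and -0.37 for Sox4 (adjusted p = 0.00251). For these genes 15 to 18 of the 18 libraries at 28 months lay below the 3-month median ratio. Neurod1 at -0.11 and Tubb3 at -0.06 did not pass the test (adjusted p = 0.593 for both).

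Correlations between the 9 genes were computed between mice of the same age and prep. Of 36 pairs over 82 libraries, 3 had an adjusted p under 0.05 by Pearson's r on log2 CPM with the age and prep means subtracted (two-sided permutation test within age and prep, adjusted over the 36 pairs). Igfbpl1 and Eomes varied in the same direction, with r = 0.43 (permutation p = 0.0001, adjusted p = 0.0036) and Spearman's rho = 0.41 (permutation p = 9e-05, adjusted p = 0.00324). Without the 2 libraries farthest from the median Igfbpl1 value r was 0.34, without the pair least like the others it was 0.49, and within preps 1, 2 and 3 it was 0.44, 0.62 and 0.26, passing the adjusted threshold alone in prep 2. Sox11 and Draxin went in opposite directions, with r = -0.49 (permutation p = 0.00274, adjusted p = 0.0329) and rho = -0.33 (permutation p = 0.00152, adjusted p = 0.0274), r = -0.28 without the 2 farthest libraries, and -0.30, -0.31 and -0.76 within preps. Igfbpl1 and Tubb3 had r = -0.41 (permutation p = 0.00122, adjusted p = 0.022) but rho = -0.28 (permutation p = 0.0198, adjusted p = 0.178), r = -0.38 without the 2 farthest libraries, and -0.22, -0.51 and -0.46 within preps. Without the pair of libraries least like the others, the last 2 relations fell to r = -0.26 (adjusted p = 0.097) and -0.22 (adjusted p = 0.195). A different set of pairs then passed beside Igfbpl1 and Eomes: Dcx and Sox11 with r = 0.37 (adjusted p = 0.0155), and Neurod1 and Tubb3 with r = -0.34 (adjusted p = 0.00612). Over all 82 libraries Neurod1 and Tubb3 had r = -0.05 (permutation p = 0.627, adjusted p = 0.752) but rho = -0.33 (permutation p = 0.00271, adjusted p = 0.0325), and within preps r was -0.56, -0.07 and 0.26. Some larger or similar r values did not pass: Sox4 and Draxin had r = 0.63 (permutation p = 0.0186, adjusted p = 0.116), Dcx and Sox4 0.50 (permutation p = 0.00996, adjusted p = 0.0896) and Dcx and Draxin 0.43 (permutation p = 0.0351, adjusted p = 0.116), with rho = 0.09, 0.21 and -0.06, and r = 0.07, 0.11 and -0.07 without the 2 farthest libraries. The smallest p that the permutations can give is 1e-05.

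For 8 of the 9 genes, the 3 genes outside the set with the most similar residuals over the 82 libraries are named as a description, out of 15007 genes whose mean reached 1 CPM. The nearest to Igfbpl1 were Prkcq (r = 0.55), the cilium factor Foxj1 (0.55) and Cfap206 (0.54), and to Eomes Ebf3 (0.62), Zic1 (0.61) and Pde1c (0.59). Dcx lay close to Prrg3 (0.89), Pcdh15 (0.88) and Pgap1 (0.86), Tubb3 to Syngr3 (0.87), Cadm4 (0.80) and Fsd1 (0.79), and Neurod1 to Il20rb (0.79), Gdf10 (0.79) and Bcl2l15 (0.75). Fabp7 was nearest to the tubulin Tubb2b (0.67), Pdzd11 (0.63) and Hopx (0.60), a gene of quiescent stem cells and astrocytes. Sox4 was nearest to Scd2 (0.88), Tnfrsf19 (0.87) and Cttnbp2nl (0.87). For Draxin the nearest were Vash1 (0.83), Pcdhga5 (0.83) and Pcdhgb6 (0.83), but without the pair of libraries least like the others these values were 0.19, 0.24 and 0.26. Ranked again without that pair, 2 of the 3 genes were named again for Eomes, 1 of 3 each for Dcx, Sox4, Neurod1, Tubb3 and Fabp7, and 0 for Igfbpl1 and Draxin. All of these values share libraries, depth and scaling with the gene they are set beside.

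Genes of the same lineage were described from lists, whose counts stand against 28.3% of all genes changed and 12% lower, or 34.1% and 16.6% without the pair of libraries least like the others. Among genes of dividing cells, 11 of 20 tested were lower at 28 than at 3 months and 0 higher (median -0.44 on the log2 scale, against 0.0083 over all genes). They included Rrm2 (-0.70 ± 0.09, adjusted p = 4.76e-09), a subunit of ribonucleotide reductase, and the spindle gene Tpx2 (-0.43 ± 0.10, adjusted p = 0.00039). At 9 months 2 of these 20 were lower, against 0.128% of all genes, and at 15 months 8, against 0.347%. Among radial glia-like stem cell genes, 6 of 19 were lower and 2 higher (median -0.16). The matrix protein Tnc fell from 8.39 ± 1.60 to 3.56 ± 0.950 CPM (SD), a log2 fold change of -1.22 ± 0.11 (adjusted p = 4.36e-14), and Thbs4 by -0.53 ± 0.14 (adjusted p = 0.00295), while Vim, an intermediate filament also made by reactive astrocytes, rose by 0.44 ± 0.08 (adjusted p = 1.97e-05) and Sox1 by 0.16 ± 0.05 (adjusted p = 0.0145).

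In the dentate granule lineage 5 of 12 genes were lower and 0 higher (median -0.17), among them Prox1 (-0.38 ± 0.13, adjusted p = 0.0268), which specifies granule neurons, and Bhlhe22 (-0.33 ± 0.07, adjusted p = 0.000357). In the ventricular zone to olfactory bulb lineage 1 of 15 was lower, Prokr2 (-0.65 ± 0.13, adjusted p = 5.89e-05), a receptor needed for neuroblast migration, and 1 higher, Dlx6 (0.37 ± 0.14, adjusted p = 0.0337), with a median of -0.01. Of the cytoskeleton and adhesion genes of immature neurons 7 of 24 were lower and 0 higher (median -0.14), and 13 without the pair of libraries least like the others. They were led by Nrep (-0.60 ± 0.16, adjusted p = 0.00383) and Dpysl3 (-0.44 ± 0.05, adjusted p = 5.53e-12). Among guidance receptors and netrin pathway genes 4 of 12 were lower and 0 higher (median -0.09), including the Draxin receptor Dcc (-0.27 ± 0.08, adjusted p = 0.00447) and Unc5b (-0.29 ± 0.11, adjusted p = 0.034). Without the pair of libraries least like the others, 7 radial glia-like genes were lower and 2 higher, 11 dividing-cell genes lower and 1 higher, 4 dentate lineage genes lower, 1 olfactory lineage gene lower and 0 higher, and 4 guidance genes lower.

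**Figure D4:**
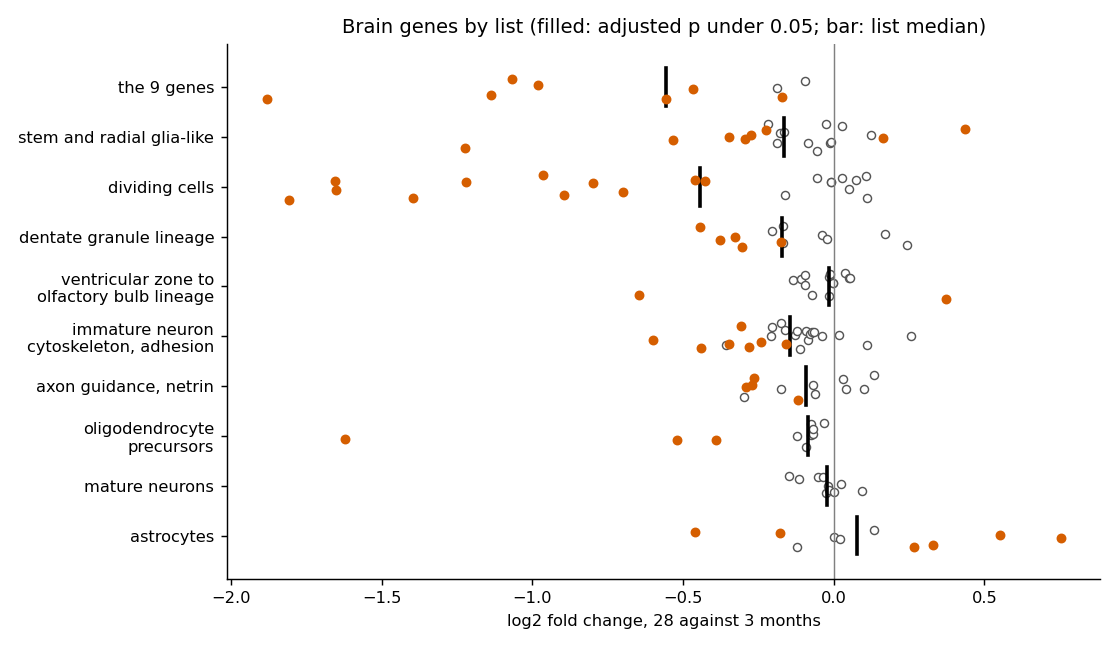
Log2 fold change in the brain at 28 against 3 months for every tested gene of 10 lists, 1 point a gene, filled where the adjusted p is under 0.05, with a bar at the list median. Mature neuron markers have 0 filled points, and the lowest points outside the 9 genes are dividing-cell genes and the oligodendrocyte precursor gene Gpr17.

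Counts of called markers of other cells and of dissected regions stand against 16.3% of all genes higher and 12% lower. With a score of the olfactory bulb markers as a covariate the same 7 of the 9 genes were called at 28 against 3 months, in a fit that called 5322 of 18711 genes. With a score of the clock genes 8 were called, Dcx being added, in a fit that called 7507 of 18711. The part of the other markers in the results was not tested, beyond the fits without the libraries set apart. In edgeR 0 of 10 mature neuron markers were called, with 2 at an unadjusted p under 0.05, against 1 in DESeq2 and 3 in voom. Of the olfactory bulb markers 0 of 7 were called in edgeR, 0 of them at an unadjusted p under 0.05, against 0 in DESeq2 and 1 in voom. For olfactory ensheathing glia it was 0 of 6 in edgeR, 4 of them at an unadjusted p under 0.05, and 1 each in DESeq2 and voom. The summed olfactory bulb markers ran from 272 to 338 CPM at 3 months (median 313) and from 208 to 324 CPM at 28 months (median 301). Dentate granule neuron markers were lower in 3 of 8 cases (median -0.27), with sums of 271 to 533 CPM at 3 months and 173 to 428 CPM at 28 months. Oligodendrocyte precursor markers, of cells that can also express Sox4 and Sox11, were lower in 3 of 10 cases (median -0.08), with Gpr17 of committed precursors at -1.62 ± 0.10 (adjusted p = 6.07e-23), from 66.4 ± 6.72 to 21.5 ± 6.44 CPM. Their sums ran from 318 to 517 CPM at 3 months and from 221 to 403 CPM at 28 months. Astrocyte markers, which bear on Fabp7, were higher in 4 and lower in 2 of 10 cases (median 0.08): Gfap rose by 0.75 ± 0.08 (adjusted p = 1.63e-12) and Aqp4 fell by 0.46 on the log2 scale (adjusted p = 0.00299). Microglia markers were higher in 8 and lower in 1 of 10, and endothelial markers higher in 2 and lower in 4 of 10. Red blood cell markers were higher in 4 of 6 cases, hepatocyte markers in 3 of 4 and ependymal markers in 1 of 7, and the 2 pituitary markers tested were lower. Of 12 clock genes 5 were higher and 1 lower. Choroid plexus markers gave 0 of 8 in edgeR, 1 of them at an unadjusted p under 0.05, and 0 in DESeq2 and voom. Without the pair of libraries least like the others the counts became 4 lower for oligodendrocyte precursors, 3 higher for astrocytes, 9 higher for microglia, 5 lower for endothelial cells, 1 higher and 1 lower for mature neurons, and 7 higher and 2 lower for clock genes.

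One liver library, 28 months replicate 14, stood apart, with Snap25 at 48.1 CPM over the unscaled total against at most 0.214 in any other, and the lowest Alb at 16688 against 35816 or more. In the liver only Sox4, Eomes and Fabp7 passed the filter on low counts. Igfbpl1, Sox11 and Neurod1 held at most 2 counts in any liver library, Draxin at most 12, and Dcx and Tubb3 at most 45 and 51. The 45 counts of Dcx came from replicate 14 of 28 months, and no other liver library exceeded 10. Of the 3 genes, 2 were higher at 28 than at 3 months, where 61.9% of all liver genes changed, 31.9% higher and 30% lower. Eomes ran from 0 to 0.976 CPM at 3 months (median 0.0850) and from 0.113 to 3.34 CPM at 28 months (median 0.702), a log2 fold change of 2.81 ± 0.52 (adjusted p = 3.75e-06), or 6.99-fold. Its 3-month counts were mostly at or near the floor of 3 counts, so the size of this rise is uncertain. Eomes also did not pass the filter on low counts in a liver fit of these ages alone. The highest 3-month value came from replicate 12, with 33 counts where no other library of that age exceeded 5, and without it the fold was 11.3 (log2 3.50 ± 0.54, adjusted p = 4.61e-08). The same library held the highest 3-month Fabp7 level, and without it the change of Fabp7 was 1.71 ± 0.22 (adjusted p = 4.4e-10). Over all libraries Fabp7 ran from 2.61 to 8.43 CPM at 3 months (median 3.42) and from 3.94 to 61.0 CPM at 28 months (median 8.35), a change of 1.58 ± 0.22 (adjusted p = 5.76e-09). Without 28 months replicate 9, the library at 61.0 CPM, it was 1.19 ± 0.16 (adjusted p = 2.28e-09). Sox4 showed 0.01 ± 0.15 (adjusted p = 0.964). Without 28 months replicate 14 the changes were 2.88 ± 0.53 for Eomes (adjusted p = 3.27e-06), 1.66 ± 0.22 for Fabp7 (adjusted p = 1.58e-09) and -0.09 ± 0.15 for Sox4 (adjusted p = 0.595).

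The age effect differed between the tissues for all 3 genes in the interaction of tissue and age over the libraries of both tissues, where 49.2% of 14035 genes differed. The brain change minus the liver change was -0.52 ± 0.17 for Sox4 (adjusted p = 0.00667), -3.97 ± 0.64 for Eomes (adjusted p = 9.47e-08) and -2.67 ± 0.25 for Fabp7 (adjusted p = 1.3e-17). Without liver 28 months replicate 14 it was -0.40 ± 0.16 (adjusted p = 0.0297), -4.03 ± 0.65 (adjusted p = 7.54e-08) and -2.74 ± 0.25 (adjusted p = 1.46e-18), and without liver 3 months replicate 12 -0.50 ± 0.17 (adjusted p = 0.00878), -4.68 ± 0.67 (adjusted p = 1.42e-09) and -2.79 ± 0.25 (adjusted p = 3.34e-19). The 3-month liver counts of Eomes lie near the floor of 3 counts, so the size of its difference is uncertain. Eomes is also a factor of natural killer and cytotoxic T cells. In the liver 9 of 10 markers of those cells were higher at 28 months (median 1.65 on the log2 scale), and summed levels ran from 3.45 to 38.3 CPM at 3 months (median 5.43) and from 10.1 to 46.4 CPM at 28 months (median 19.5). The 38.3 CPM was that of 3 months replicate 12, the library with the highest Eomes of that age, and the next highest sum at 3 months was 6.72 CPM. The part of these cells in the liver result was not tested. In the brain the same markers summed to at most 1.60 CPM in any library, and 0 of 10 passed the filter on low counts.

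**Figure D5:**
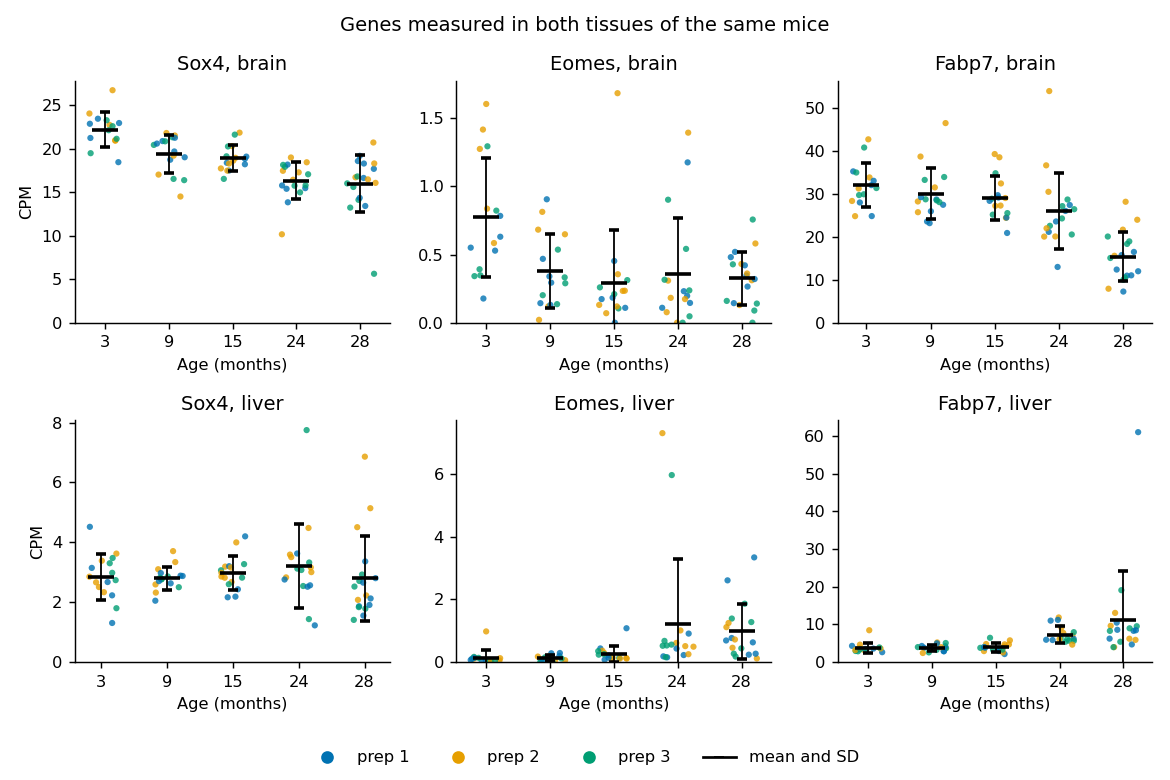
Levels (CPM, linear axes that start at 0 and differ between panels) of Sox4, Eomes and Fabp7 by age in months in brain (top) and liver (bottom), with points for single libraries coloured by library preparation and bars for the mean and SD (cut at 0). Eomes and Fabp7 run downward in the brain and upward in the liver, where 1 library of 28 months stands at 61.0 CPM of Fabp7.

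In the GENCODE M21 annotation (GRCm38), all 9 are protein-coding genes. Igfbpl1 lies at chr4:45809468-45826923, Draxin at chr4:148098437-148130698, Dcx at chrX:143855842-143933311, Sox11 at chr12:27334264-27342574, Sox4 at chr13:28948919-28953713 and Neurod1 at chr2:79452521-79456751, all on the minus strand. Eomes at chr9:118478212-118486132, Tubb3 at chr8:123411424-123422015 and Fabp7 at chr10:57784881-57788450 are on the plus strand. Exons of Sox4 share 2616 bases with the noncoding gene Gm26735 on the opposite strand, those of Eomes 118 with Gm33460, and those of Neurod1 154 with Gm26755. Neurod1 also shares 201 exonic bases with Cerkl on its own strand. The library kit keeps strand, but the strand setting of the authors' counting is not given in the sources used here, so reads of these pairs may not be told apart.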

How the data were processed

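RNA of brain and liver was isolated and made into stranded libraries of polyadenylated RNA, per the labels' protocols. The submitters' processing notes name cutadapt 2.8, HISAT2 2.1.0, SAMtools 1.9, featureCounts of Subread 2.0.1 and the build GRCm38.p6 (mm10), without roles or settings. The authors deposited whole-number counts for 55471 Ensembl identifiers in each tissue, not normalized, of which 55144 matched a symbol; 0 columns were left unused. Total counts per library were 11.5 M to 73.4 M in the brain and 5.82 M to 57.5 M in the liver. Libraries were compared in pairs, and each pair differed by more than sampling noise.

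Counts were fitted in R 4.3.3 with edgeR 4.0.16: filterByExpr by age, TMM scaling, and a two-sided quasi-likelihood test with age and prep as terms over all libraries of a tissue, with Benjamini-Hochberg adjustment over all genes tested and calls at an adjusted p under 0.05. The SE of a log2 fold change is its size over the square root of F. Correlations and ratios were computed in Python with permutation tests. DESeq2 1.42.0 and voom of limma 3.58.1 were alternatives. The fit was checked on simulated counts.

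The 9 genes and the lists were chosen with earlier results of these data known. The text names all 9 genes, from each list up to 2 called genes with the highest and 2 with the lowest change and a mean CPM of 1 or more, and, for 8 of the 9 genes, the 3 genes most like each. Names outside this rule are Snap25 and Alb, which check the tissue, and genes whose exons overlap those of the 9.

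Replicate numbers restart at each age and were tested as a pairing. Over 157 same-numbered pairs of brain libraries the median correlation of deviations was 0.00955, against 0.003 over other pairs of different ages. Of the same-numbered pairs 41 exceeded 0.1, and 9 of 82 libraries correlated best with their own number. The numbers were therefore not taken to pair mice across ages. A number shared by brain and liver at 1 age marks 1 mouse. Floors and zeros cover counting error only. The genes most similar to Sox11 are not reported here.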

Additional observations from a re-analysis of the deposited data

Results flagged for a closer look

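The genes below are listed because the change from 3 to 28 months differed between brain and liver by the test of the difference itself (interaction of tissue and age, edgeR quasi-likelihood test, adjusted over all 14035 genes). The brain change minus the liver change was -0.52 for Sox4, -3.97 for Eomes and -2.67 for Fabp7 on the log2 scale. Sox4 fell in the brain (-0.47) and had an estimate of 0.01 in the liver. Eomes and Fabp7 fell in the brain (-1.14 and -1.07) and rose in the liver (2.81 and 1.58), where the 3-month counts of Eomes were near the floor of 3 counts. With the mouse as a block the adjusted p-values were 0.00939, 5.23e-08 and 4.47e-14. No test for single outlying values was made within an age, because every age holds more than 10 libraries.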

How the results depend on the processing

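Across the alternatives other than leaving out 1 library, 270 of 340 single values kept their direction and their side of the threshold, 61 lost significance, 3 gained it and 6 changed sign. Fitting 1 prep at a time lowered most counts of called genes. At 9 against 3 months the 3 calls became 0 in each prep, where 10, 0 and 0 of all genes were called in preps 1, 2 and 3, and at 15 against 3 months the 4 became 0 in each, with 17, 11 and 0 of all genes. At 24 against 3 months prep 1 gave 2 (222 of all genes) and prep 3 gave 0 (92). At 28 against 3 months prep 2 gave 2 and prep 3 gave 3, and in the joint test preps 2 and 3 gave 3 each (266 and 376 of all genes). At 28 against 24 months preps 2 and 3 gave 0 (0 of all genes in each, with 1474 and 3020 at an unadjusted p under 0.05), a fit of only the 2 ages gave 0 (2 of 18017), and the clock gene covariate gave 2, Tubb3 and Fabp7 (1025 of all genes, against 204 without it). At 24 against 15 months voom with quality weights called 2 (Sox11 and Sox4) and a fit of the 2 ages 1 (Sox4). In the liver the fit of 2 ages gave 1, Fabp7, as Eomes did not pass the filter on low counts there, and prep 2 gave 0. The share of all liver genes called in these fits was not counted. Correlated pairs numbered 3 over all libraries and 1, 1 and 0 in preps 1, 2 and 3, namely Neurod1 and Tubb3 in prep 1 and Igfbpl1 and Eomes in prep 2. Fewer libraries enter a fit of 1 prep; the cause of the other shifts was not tested.

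The sign changed for Dcx in prep 1 (0.23), for Neurod1 in prep 2 (0.16) and for Sox4 in the liver with voom (-0.26), without the filter (-0.027) in preps 1 and 3 (-0.23 and -0.34) and without 28 months replicate 14 (-0.093; 0.017 without replicate 9); none of these values passed the threshold in its own fit. Leaving out 1 brain library at a time gave 2 to 3 calls at 9 months, 2 to 5 at 15 months, 4 to 6 at 24 months and 6 to 7 at 28 months against 3 months, 0 to 1 from 15 to 24 months (Sox4, without 28 months replicate 15), 0 from 9 to 15 months and 1 from 24 to 28 months. The 2 calls at 15 months, Igfbpl1 and Draxin, came without 3 months replicate 13 or 15 months replicate 1, 7, 9 or 16. With the replicate number as a block 7 of the 9 genes were called at 28 against 3 months, as without it (4839 of 18711 genes, against 5291 without the block). At 24 against 3 months this fit called 5, where Eomes was added (1743 of all genes, against 1882 without the block). Of 82 libraries, 9 correlated best with their own number. The low counts of Igfbpl1, Draxin and Eomes limit what their single libraries can show.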
